A study of Mus musculus with 6 samples.

Results

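Gapdh, G6pd2, Ldhal6b and Gk are the 4 genes of glycolysis, lactate, pentose phosphate and glycerol metabolism whose probes carry a RefSeq accession on an array for long noncoding RNAs and mRNAs. They were taken by probe name, 1 probe with 20 spots per array for each gene, from 60915 non-control probes, of which 15 have a gene name here. Spleens came from 6 female C57BL/6 mice aged 12 weeks, 3 with EAE (experimental autoimmune encephalomyelitis, an induced autoimmune disease that models multiple sclerosis) and 3 controls. The EAE mice received 2 mg/mL of a myelin oligodendrocyte glycoprotein peptide (MOG33-35 in the titles, MOG35-55 in the treatment protocol) and 200 ng of pertussis toxin through the tail vein. The controls were given the saline buffer PBS instead of peptide, and the labels do not say whether they also received the toxin or at which stage the EAE spleens were taken. Each spleen's RNA was hybridised to its own 1-colour array, so the SD of a group holds the variation between mice together with that between arrays.

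Glucose taken up by a cell can be broken down by glycolysis, in which glyceraldehyde-3-phosphate dehydrogenase (Gapdh) and then phosphoglycerate kinase 1 (Pgk1) act in succession, and lactate dehydrogenases convert the end product pyruvate to lactate. It can also enter the pentose phosphate pathway, whose first step, catalysed by glucose-6-phosphate dehydrogenase, yields NADPH. Glycerol kinase (Gk) phosphorylates glycerol and so links the breakdown of fats to the same pool of metabolites. Lymphocytes, the main cells of the spleen, are known to raise glycolysis when activated. G6pd2 and Ldhal6b are relatives of the X-linked G6pdx and of the lactate dehydrogenase genes, and both are known mainly from testis. The probe sequences were not used here, so signal from the gene itself and from related genes (G6pdx for G6pd2, other lactate dehydrogenases for Ldhal6b, Gk2 and Gykl1 for Gk, processed copies for Gapdh) cannot be told apart.

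EAE arrays were dimmer than PBS arrays, with 75th percentiles of the processed signal of 278 to 394 against 429 to 568. Levels are therefore given as log2 processed signal minus the array's 75th percentile, called the scaled log2 level, and unscaled signals are given beside them for the 4 genes and the mouse control spots. By the scan times in the headers, 5 arrays were scanned together and the array of EAE 3 separately. Of 24 marker genes of spleen and testis cell types, only Tfrc has a name on the array, so the labelled tissue could not be checked against its markers. In whole spleen, a change in the number of cells that express a gene and a change in RNA per cell cannot be told apart.

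None of the 4 genes passed the limma test at an adjusted p of 0.05 (0 higher and 0 lower in EAE, where 8.80% of the 41178 tested probes passed, 6.13% higher and 2.67% lower), while 2 of the 4 had an unadjusted p below 0.05, as did 26.3% of tested probes. The scaled log2 difference, EAE minus PBS, was 1.13 for G6pd2, 0.48 for Ldhal6b, 0.30 for Gapdh and -0.02 for Gk. The median over the 4 genes was 0.39, and over all tested probes -0.02. The 2 genes with the larger differences, G6pd2 and Ldhal6b, did not overlap between the groups, all EAE values being above all PBS values. Such a separation in either direction was found at 33.0% of tested probes, and with EAE above at 19.4%.

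**Figure D1:**
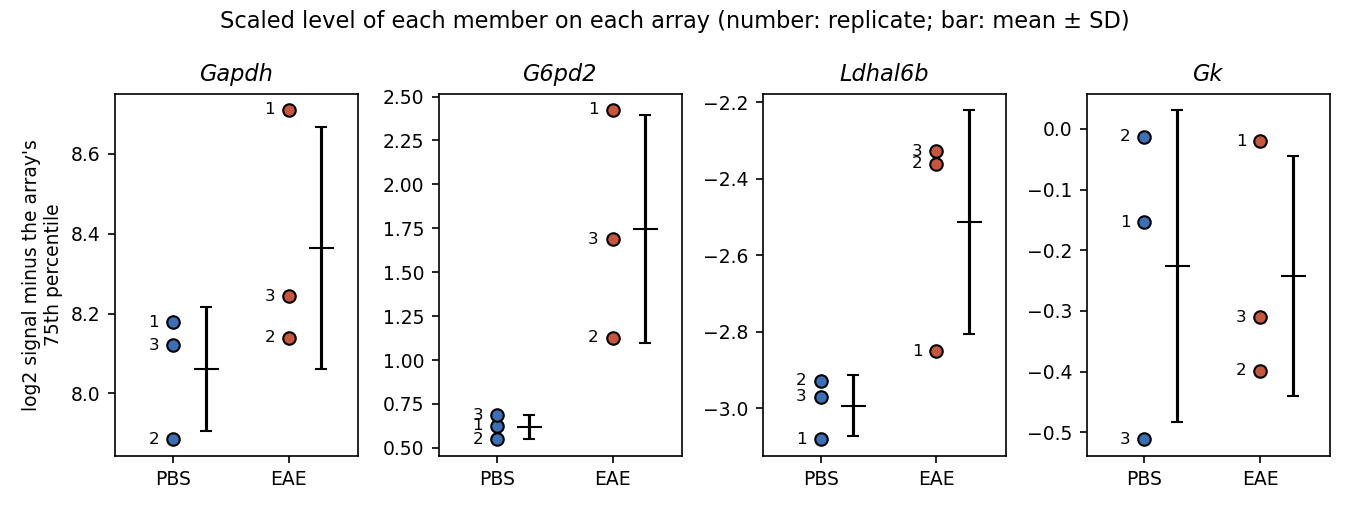
Scaled log2 level (log2 processed signal minus the array's 75th percentile, vertical axis, a separate range for each gene) of the 4 genes on the 3 PBS (blue) and 3 EAE (red) arrays, with replicate numbers beside the points and the mean ± SD as a bar. The EAE points of G6pd2 and Ldhal6b lie above all PBS points, while those of Gapdh and Gk overlap with PBS.

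Gapdh, the glycolytic enzyme gene that is often used as a loading reference, gave one of the brightest signals on the array and its groups overlapped after scaling. Its unscaled signal was 143363, 134376 and 119385 on PBS 1 to 3 and 116257, 92768 and 119239 on EAE 1 to 3. All EAE values were thus below all PBS values before scaling, though EAE 3 and PBS 3 were almost level. The scaled log2 level was 8.18, 7.89 and 8.12 in PBS, against 8.71, 8.14 and 8.24 in EAE. EAE 1 stood highest, and EAE 2 fell within the PBS range. The difference was 0.30 ± 0.21 (SE, n = 3 per group), with a 95% interval of -0.20 to 0.80 and a limma adjusted p of 0.410. This interval covers anything from 1.15-fold lower to 1.74-fold higher in EAE. Without EAE 1 the difference was 0.13, and with quantile normalisation 0.070. The sign depends on the scaling, because cyclic loess gave -0.0081 and the unscaled log2 difference was -0.28 (p = 0.1 in an exact two-sided permutation test, which cannot give less with 3 arrays per group). The probe ranked at percentiles of 99.6 to 99.8 among non-control probes on the 6 arrays, and 0 of its spots were saturated.

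Gapdh could be read a second time at the control spots of the array, which lie outside the fit. Their names were read as giving species, gene and transcript end, with 10 spots for each. At the spots for the 3′ end of mouse GAPDH the scaled log2 level was 7.20, 6.89 and 7.02 in PBS, against 7.66, 6.94 and 7.23 in EAE, which differ by 0.24 (p = 0.4, exact two-sided permutation test). Without EAE 1 this difference was 0.045, and without EAE 2 it was 0.41. The order of the arrays within EAE was that of the Gapdh probe, and the groups again overlapped, as did the unscaled signals of 55836 to 72959 in PBS and 40373 to 59081 in EAE. At the 5′ end the level was 6.03, 5.74 and 5.98 in PBS, and the EAE arrays had 6.46, 5.55 and 5.74, so that EAE 1 was highest and EAE 2 lowest of all 6 arrays. The group means were both 5.92, with a difference of 8.26e-05 (exact permutation p = 1). Unscaled, the 5′ spots had 27029 to 32411 in PBS and 15404 to 24496 in EAE, so every EAE array was below every PBS array before scaling.

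The Gapdh probe was also set against the control spots on each array. The probe exceeded the 3′ spots by 0.97 to 1.10 in PBS and by 1.01 to 1.20 in EAE, with overlap, and the groups differed by 0.07 (exact two-sided permutation p = 0.5). Over the 5′ spots its excess was 2.15, 2.15 and 2.14 in PBS, which is an SD of 0.0026 over the arrays, and 2.25, 2.59 and 2.51 in EAE. All EAE arrays lay above all PBS arrays, and the group difference was 0.30 (exact two-sided permutation p = 0.1, and 0.2 adjusted over these 2 contrasts). Such a ratio on the same array is free of a brightness factor common to all its signals, but not of one that changes with intensity. These 2 contrasts were not recomputed with other normalisations. The group difference after scaling was 0.30 at the probe, 0.24 at the mouse 3′ spots and 8.26e-05 at the mouse 5′ spots, where normexp turned it to -0.099. At the human and rat GAPDH spots it was 0.39 and 0.26 at the 3′ end, and -0.19 and -0.29 at the 5′ end. Of these, only the human 3′ spots did not overlap between the groups. The part of RNA quality in these values was not tested.

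Pgk1, the next enzyme of glycolysis and the only other glycolytic gene that could be read, also appears at control spots. Mouse PGK1 3′ spots had scaled log2 levels of 6.02, 5.70 and 5.96 in PBS and 7.13, 6.41 and 6.52 in EAE. The lowest EAE array exceeded the highest PBS array, with EAE 1 highest as at Gapdh. The difference of 0.79, a 1.73-fold higher scaled signal, had an exact two-sided permutation p of 0.1 and 0.24 adjusted over the 12 GAPDH and PGK1 control probes. At the human PGK1 3′ spots, which here bound mouse RNA, EAE was higher by 0.90 and at the dim mouse PGK1 5′ spots by 0.72, both without overlap (exact permutation p = 0.1, adjusted p = 0.24). In all, 4 of 6 PGK1 probes and 1 of 6 GAPDH probes had every EAE array above every PBS array, beside 19.4% of the tested probes. The tested probes were filtered on background, and the control probes were not. The 4 PGK1 probes include the dim mouse and rat 5′ spots. At the rat spots EAE was higher by 0.68, with unscaled signals of 39.4 to 47.4 in PBS and 43.2 to 47.4 in EAE. Before scaling every PGK1 probe overlapped between the groups, and the 75th percentile itself differed by -0.58 (EAE minus PBS, log2). The human PGK1 5′ spots were well above background on 0 of 6 arrays. The PGK1 probes read the same 6 RNAs and are not replicates of one another. Unscaled, the mouse PGK1 3′ signals were 26789 to 32212 in PBS and 28072 to 38901 in EAE and overlapped, as did those of the mouse PGK1 5′ spots at 38.1 to 45.5 and 44.0 to 46.0 and of the human PGK1 3′ spots at 6762 to 8391 and 7807 to 10930.

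**Figure D2:**
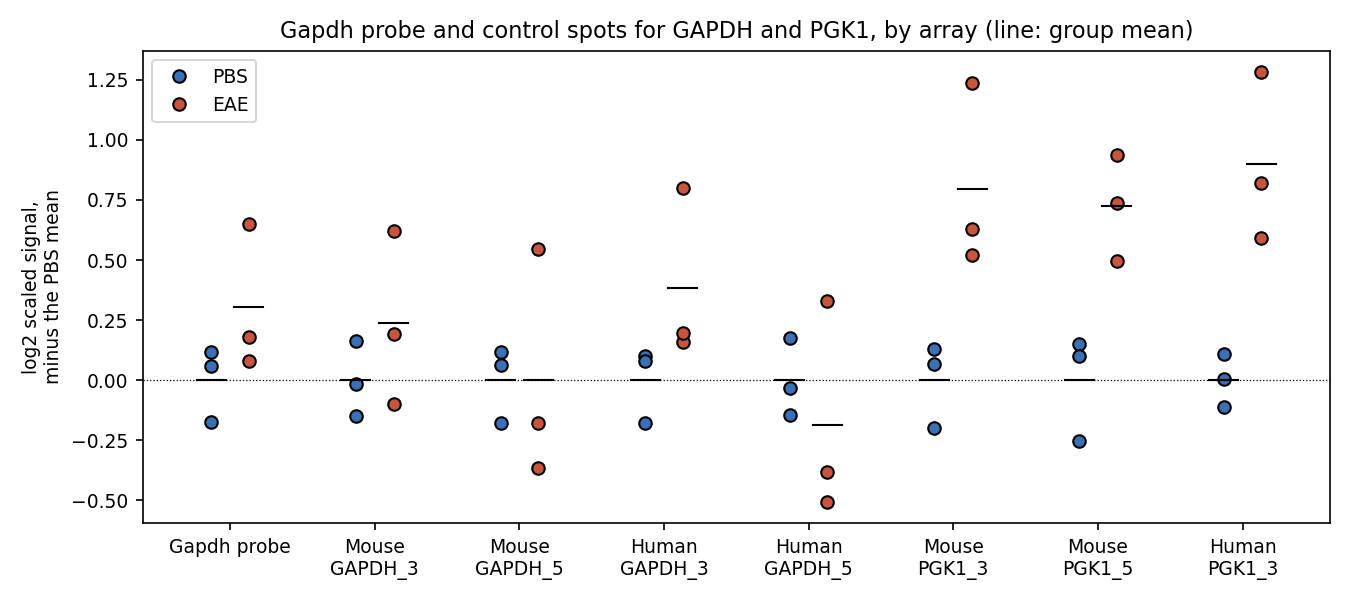
Scaled log2 signal minus the PBS mean (vertical axis) of the Gapdh probe and of control spots for GAPDH and PGK1 on the 3 PBS (blue) and 3 EAE (red) arrays, with group means as lines. EAE points lie above all PBS points at the 3 PGK1 spot types and at the human GAPDH 3′ spots, and overlap with PBS at the Gapdh probe and the other GAPDH spots.

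G6pd2, the relative of the gene for the first enzyme of the pentose phosphate pathway, had the largest difference of the 4 genes. Its unscaled signal was 763, 832 and 690.0 on PBS 1 to 3 and 1489.7, 718 and 1267 on EAE 1 to 3. EAE 1 and EAE 3 were brighter than every PBS array although the 75th percentile of their arrays was lower, and EAE 2 lay within the PBS range. The scaled log2 level was 0.63, 0.55 and 0.69 in PBS, against 2.42, 1.13 and 1.69 in EAE. All EAE arrays were above all PBS arrays. The difference was 1.13 ± 0.32 (SE, n = 3 per group), 2.18-fold, with a 95% interval of 1.31-fold to 3.64-fold before adjustment over probes. The limma p was 0.00824 unadjusted and 0.0708 adjusted over all tested probes, so G6pd2 missed the threshold. The interval and these p-values take 1 variance for both groups, although the SD was 0.65 in EAE and 0.069 in PBS. An exact two-sided permutation test gave p = 0.1, the least possible with 3 arrays per group. A difference at least as large in the same direction was found at 4.57% of tested probes.

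The EAE arrays differed among themselves far more than the PBS arrays in G6pd2. The SD over the arrays of a group, 1 per mouse, was 0.65 in EAE and 0.069 in PBS, a ratio of 9.50. Variation between mice and between arrays cannot be separated in it. The ratio rests on 3 arrays per group, and the share of tested probes with a ratio this large was not counted. An EAE SD of this size or larger was found at 14.4% of tested probes, and a PBS SD this small or smaller at 9.56%, where the median SDs of all tested probes were 0.32 and 0.18. Without EAE 1, the highest array, the difference was 0.79 (limma adjusted p = 0.0965), and without EAE 2, the lowest, it was 1.44 (limma adjusted p = 0.0214), past the threshold. Within the shared scan, which leaves out EAE 3, it was 1.15 (limma adjusted p = 0.106). G6pd2 passed in 7 of 19 distinct alternative analyses, with adjusted p-values of 0.0214 to 0.219 and differences of 0.79 to 1.44.

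The single spots of G6pd2 lay close together within each array. The 20 spots of an array had a mean SD of 0.044 in PBS and 0.045 in EAE on the log2 scale. All 58 EAE spots without an outlier flag were above the highest of the 59 such PBS spots after scaling. The lowest EAE spot was at 1.06 and the highest PBS spot at 0.78. Spots of an array share 1 RNA, so these counts describe the measurement on each array and not the number of mice.

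**Figure D3:**
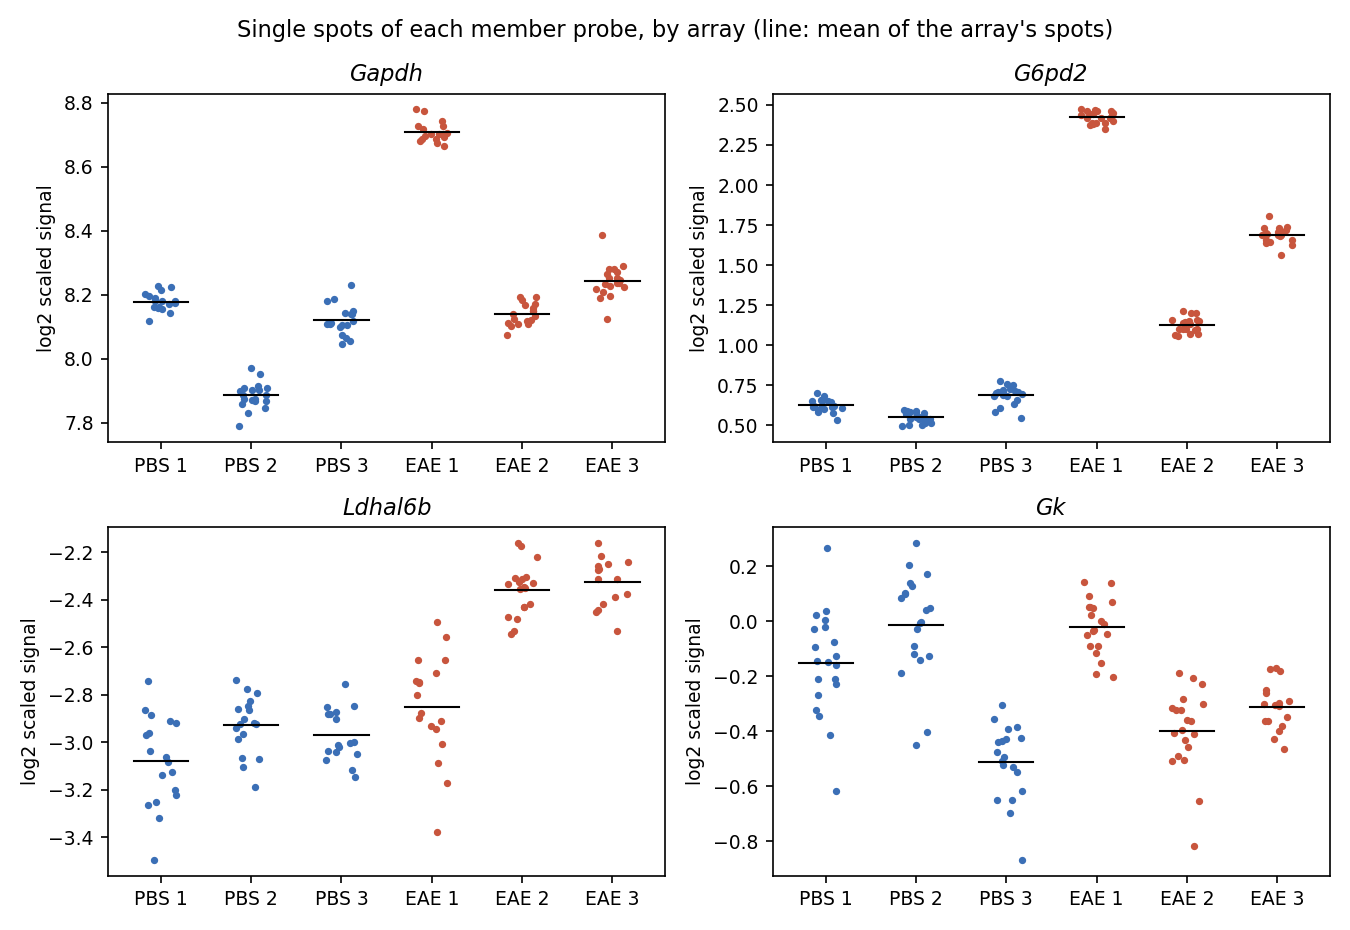
Scaled log2 signal (vertical axis) of every spot without an outlier flag of the 4 probes on each array, PBS in blue and EAE in red, with the mean of the array's spots as a line. The spots of G6pd2 form separate tight groups for EAE 1, 3 and 2 above all PBS spots, while those of Gk spread over the same range in both groups.

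Ldhal6b, the lactate dehydrogenase relative, was the dimmest of the 4 probes and its EAE arrays were divided. Its unscaled signal was 58.5, 74.7 and 54.7 on PBS 1 to 3 and 38.5, 64.1 and 78.4 on EAE 1 to 3, which overlap. These signals were 7.21 to 15.2 times the median of the array's probes named as negative, and 119 of 120 spots were well above background. The scaled log2 level was -3.08, -2.93 and -2.97 in PBS, against -2.85, -2.36 and -2.33 in EAE. EAE 2 and EAE 3 stood clearly above the controls, and EAE 1 exceeded the highest control by less than the SD of the PBS arrays. The difference was 0.48 ± 0.20 (SE, n = 3 per group), 1.39-fold, with a 95% interval of 1.00-fold to 1.94-fold before adjustment. The limma p was 0.0486 unadjusted and 0.187 adjusted. The sign of the Ldhal6b difference depends on the scaling, because the unscaled log2 difference was -0.10 (exact two-sided permutation p = 0.9).

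After scaling, EAE 1 held the highest value for Gapdh and G6pd2 among the EAE arrays and the lowest for Ldhal6b. Unscaled, Gapdh was higher on EAE 3 (119239) than on EAE 1 (116257). The spots of Ldhal6b were also less even than those of G6pd2, with a mean spot SD of 0.14 in both groups. Of 52 EAE spots without an outlier flag, 39 were above the highest PBS spot, and on EAE 1 the spots ran from -3.38 to -2.49, across most of the PBS range. EAE 1 was the dimmest array of the 6, and the part of this in its low Ldhal6b value and its high scaled values was not tested. Without EAE 1 the Ldhal6b difference was 0.65 (limma adjusted p = 0.0856). With background corrected by normexp it was 0.47 and passed the threshold (limma adjusted p = 0.0486), under a setting that moved the median of all tested probes from -0.02 to 0.14. With normexp and quantile normalisation together it was 0.24 (limma adjusted p = 0.233). It passed in no other of the 19 distinct alternatives, whose adjusted p-values reached 0.392.

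Gk, which encodes glycerol kinase, had almost the same mean in both groups. Its unscaled signal was 445, 563 and 301 on PBS 1 to 3 and 274, 249.7 and 317 on EAE 1 to 3. The scaled log2 level was -0.15, -0.01 and -0.51 in PBS, against -0.02, -0.40 and -0.31 in EAE, and every EAE value fell inside the PBS range. The difference was -0.02 ± 0.21 (SE, n = 3 per group), with a limma adjusted p of 0.970. The 95% interval of 1.42-fold lower to 1.39-fold higher is what these 6 arrays leave possible. Gk was the only gene of the 4 with a smaller SD in EAE (0.20) than in PBS (0.26), and its sign turned in 7 of 19 distinct alternatives. Within the shared scan the differences were 0.36 for Gapdh, 0.39 for Ldhal6b and 0.02 for Gk (limma adjusted p = 0.356, 0.284 and 0.971).

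The probes occupied different parts of the signal range. Gapdh lay above the 99th percentile, G6pd2 at percentiles of 79.3 to 88.1, Gk at 71.2 to 75.2 and Ldhal6b at 44.5 to 53.1. This order, Gapdh, G6pd2, Gk and Ldhal6b, was the same on all 6 arrays, but probes bind with different strength, so it gives no order of transcript abundance. The percentile of G6pd2 was 79.3 to 80.0 in PBS, against 82.6 to 88.1 in EAE, and that of Gk 71.2 to 75.2 in PBS and 72.2 to 75.2 in EAE.

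Ratios between the genes on the same array do not depend on the scaling to the 75th percentile. The log2 ratio of G6pd2 to Gk was 0.78, 0.56 and 1.20 in PBS, against 2.44, 1.52 and 2.00 in EAE. Every EAE array was above every PBS array, and the ratio was 2.21-fold higher in EAE (log2 1.14, exact two-sided permutation p = 0.1, and 0.3 adjusted over the 6 pairs). The log2 ratio of Gapdh to G6pd2 was 7.55, 7.34 and 7.43 in PBS, against 6.29, 7.01 and 6.56 in EAE. It was lower in EAE without overlap, with a difference of -0.82 on the log2 scale (adjusted p = 0.3, exact two-sided permutation p = 0.1). Within the shared scan these differences were 1.14 and -0.79. The remaining 4 pairs overlapped between the groups. Among all pairs of the 15 named genes 55.2% did not overlap, so 2 of 6 is no more than that background.

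In the ratios that involve Ldhal6b, EAE 1 stood apart from the other EAE arrays. G6pd2 to Ldhal6b was 3.71, 3.48 and 3.66 in PBS, against 5.28, 3.49 and 4.01 in EAE, and EAE 2 fell inside the control range while EAE 1 stood far above it. The group difference of 0.65 (exact permutation p = 0.3) was 0.14 without EAE 1. Gapdh to Gk was 8.33, 7.90 and 8.63 in PBS, against 8.73, 8.54 and 8.55 in EAE, where the arrays lay close together. It was higher in EAE by 0.32 and Ldhal6b to Gk by 0.50 (exact permutation p = 0.3 and 0.2). Gapdh to Ldhal6b differed by -0.18 (exact permutation p = 0.7). Adjusted over the 6 pairs these 4 p-values were 0.36 to 0.7.

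**Figure D4:**
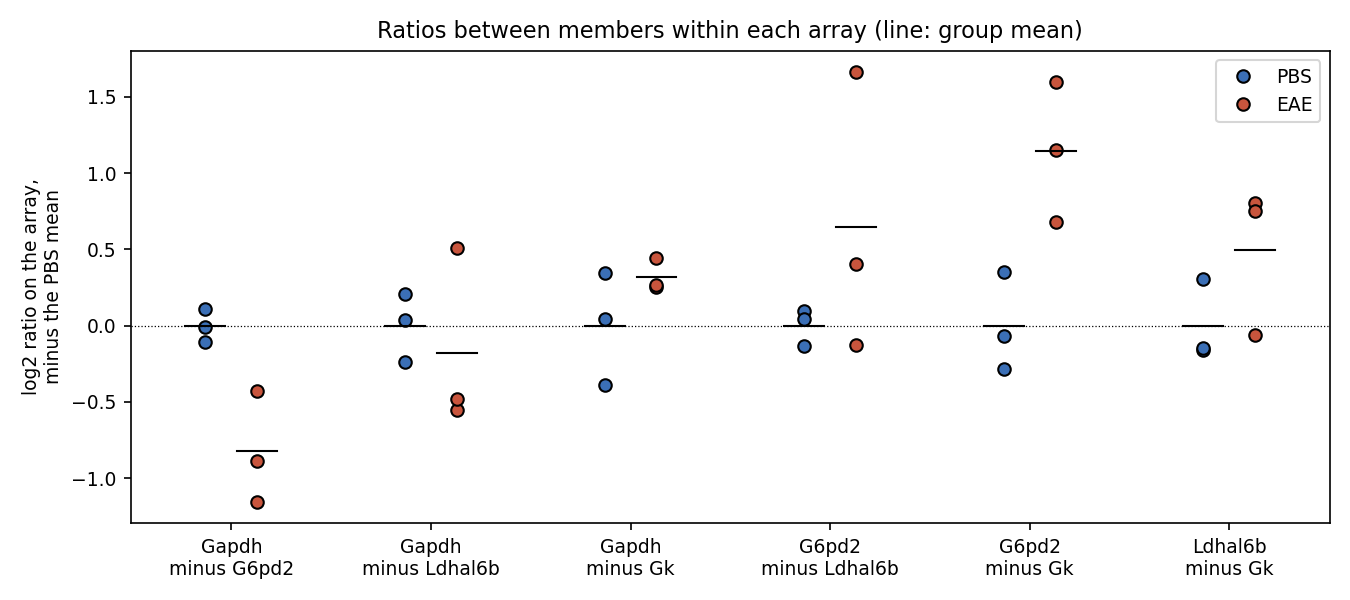
Log2 ratio between the genes on each array minus the PBS mean (vertical axis) for the 6 pairs, with PBS in blue, EAE in red and group means as lines. The groups are apart for Gapdh minus G6pd2 and G6pd2 minus Gk, while in G6pd2 minus Ldhal6b and Gapdh minus Ldhal6b EAE 1 lies far from the other EAE arrays.

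Set against the rest of the array in the same way, the ratio of G6pd2 to another probe was higher on every EAE array than on any PBS array for 68.8% of 41130 other tested probes with a value on all arrays, and lower without overlap for 1.92%. The shares were 36.9% and 5.05% for Ldhal6b, 25.8% and 7.77% for Gapdh and 8.46% and 11.8% for Gk. Of the 14 other named genes, G6pd2 was higher without overlap against 12, Gapdh against 5, and Ldhal6b and Gk against 1 each. The counts for lower without overlap were 0 for G6pd2 and Ldhal6b, 1 for Gapdh and 2 for Gk. These shares rest on the same 6 arrays and the same values as the fit and add no independent mice.

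Of 67 genes of glycolysis, sugar transport, lactate, pentose phosphate, glycerol, glycogen and related metabolism that were listed, 5 have a named probe, the 4 above and Gusb, a lysosomal enzyme that removes glucuronic acid from sugar chains. Gusb had a scaled log2 difference of 0.44 ± 0.22 (SE) and did not pass (limma adjusted p = 0.255), although its EAE values were all above its PBS values. It was the profile nearest to G6pd2, with a mean absolute difference of 0.39 over the 6 arrays when each gene was centred on its PBS mean, and Ldhal6b was next at 0.41. Gapdh lay closest to Hprt at 0.078 and Ppia at 0.092, Ldhal6b to B2m at 0.26 and Hprt at 0.28, and Gk to B2m at 0.16 and Ppia at 0.20, each among 14 candidates. This distance grows with a gene's own difference between the groups, so the distances of G6pd2 cannot be set against those of the other 3. After G6pd2, Ldhal6b (0.48) and Gusb (0.44) also had the largest scaled increases in EAE among the 15 named genes. Their nearness to G6pd2 therefore gives no evidence of a shared pattern within the groups.

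**Figure D5:**
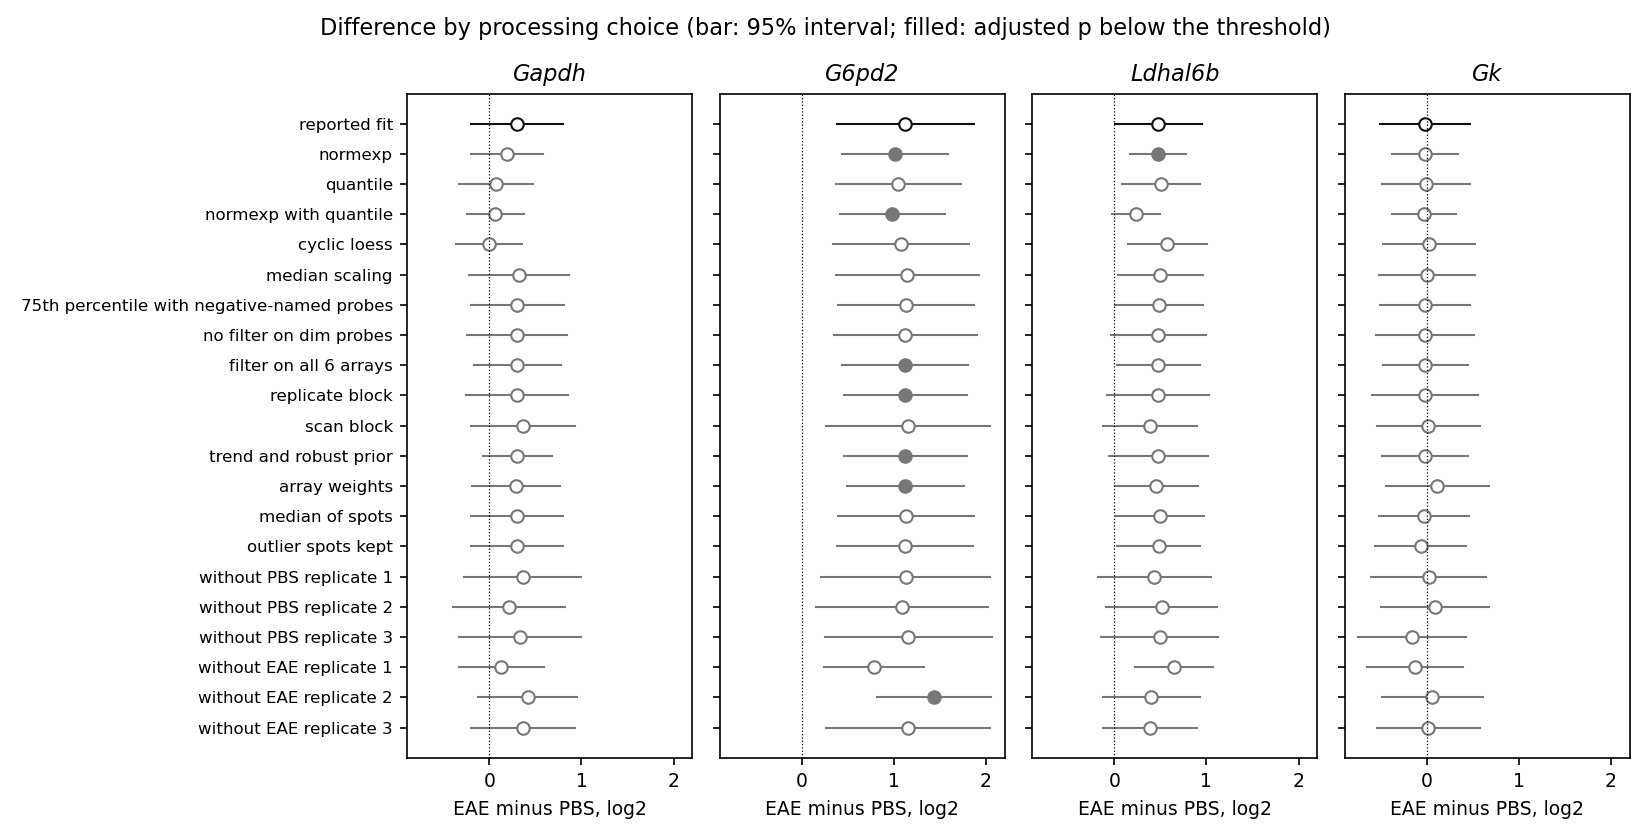
Log2 difference, EAE minus PBS (horizontal axis), of the 4 genes in the reported fit and in 20 alternatives (rows, of which scan as a block and the omission of EAE 3 are the same fit), with 95% intervals as bars and filled points where the limma adjusted p was below 0.05. The G6pd2 values stay between 0.79 and 1.44 and 7 alternatives are filled, those of Ldhal6b (0.24 to 0.65) are filled under normexp alone, and those of Gapdh (-0.0081 to 0.41) and Gk (-0.16 to 0.12) are filled in none.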

How the data were processed

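The 6 scanner files give intensity values from Agilent Feature Extraction (version 11.0.1.1), per the file headers and the submitters' processing notes. The processed signal is background-subtracted within the array and not normalized between arrays. Per the labels' protocols, spleen RNA was extracted with TRIzol and labelled with Cy3 by random priming. The deposited table of 60804 normalized probes holds 0 of the 4 member probes, and its 6 columns were not used.

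Groups came from the sample titles. Log2 processed signals minus the array's 75th percentile (non-control spots, with 15 probes named as negative set aside) were averaged per probe, without 138 spots with outlier flags (34 of them among the 480 spots of the 4 genes). The limma test (version 3.58.1, under R 4.3.3) covered probes that 3 or more arrays showed well above background (EAE against PBS, no covariates, two-sided, Benjamini-Hochberg over all tested probes). Ratios and control spots had exact permutation tests. All 15 accessions matched RefSeq gene names (GRCm38.p6, names alone). The text names the 4 genes, the other listed metabolic genes with a named probe, the GAPDH and PGK1 control spots, and the 2 nearest named profiles for each gene. The genes and lists were chosen with earlier results of these data known, and the ratios to all other probes, the Gapdh probe against control spot contrasts, the shares of tested probes by SD or difference and the counts of overlapping spots were added after seeing the values. The fit was tested on simulated data. The number of mice limits the precision.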

Additional observations from a re-analysis of the deposited data

How the results depend on the processing

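Scan as a block gave the same fit as omitting EAE 3, because that array was the only one of its scan. Of the 19 distinct alternatives, G6pd2 and Ldhal6b kept their direction in 19, Gapdh in 18 and Gk in 12. All of these alternatives scale the arrays. Unscaled, the log2 difference was 0.54 for G6pd2, -0.10 for Ldhal6b, -0.28 for Gapdh and -0.60 for Gk. The number of the 4 genes called was 2 with normexp, and 1 with normexp and quantile together, with array weights, with the replicate block, with an intensity trend and robust prior, or with only probes bright on all 6 arrays. It was 0 to 1 with an array left out. G6pd2, with a difference of 1.13 in the reported fit, passed at 1.01 with normexp, 0.98 with normexp and quantile, 1.12 with array weights, and 1.13 with the replicate block (limma adjusted p = 0.0498), with the trend and with probes bright on all 6 arrays. It ranged from 0.79 to 1.44 with an array left out. Ldhal6b passed at 0.47 with normexp. Gapdh was -0.0081 with cyclic loess. Gk was 0.023 with cyclic loess, 0.0042 with median scaling, 0.12 with array weights, 0.017 with scan as a block, and between -0.16 and 0.090 when 1 array was omitted. Gapdh minus Gk was -0.031 with cyclic loess, and Gapdh minus Ldhal6b was -0.52 to 0.011 when 1 array was omitted. Mouse GAPDH 5′ spots were -0.099 with normexp and -0.27 to 0.18 in the same omissions. Control spots were recomputed for the 7 mouse and human probes well above background on every array, not for the rat probes or human PGK1 5′. The cause was not tested. For replicates 1, 2 and 3 the deviations of the PBS and the EAE array correlated at 0.15, 0.04 and -0.14, and the numbers were treated as names. The deposited table could not be used as an alternative because it holds none of the 4 probes. The ratio of the 75th percentile to the negative-named median was 52.1 on EAE 1 and 52.8 on EAE 2, below the other arrays. The part of this in the values of Ldhal6b, the dimmest gene, was not tested.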

Other observations

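The rat PGK1 3′ control spots, 1 of the 12 GAPDH and PGK1 control probes above, had EAE 1 below EAE 2 and EAE 3, as Ldhal6b did. After scaling, EAE 1 lay within the PBS range at these spots and above it for Ldhal6b. Their unscaled signal was 19.5, 37.0 and 25.7 on PBS 1 to 3 and 11.9, 83.6 and 74.5 on EAE 1 to 3, so EAE 1 was the lowest of the 6 arrays and EAE 2 and EAE 3 the highest. The spots were well above background on 4 of 6 arrays, and the scaled log2 difference of 1.25 had an exact two-sided permutation p of 0.3. Mouse PGK1 3′ spots were highest on EAE 1. These patterns were seen in the data before they were described, and what RNA the rat spots bound was not tested.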
